A study of Mus musculus with 2 samples.

Results

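Among the mesenchyme around the mouse eye at e13.5, 419 of the 11893 kept cells were selected by transcripts of the genes Scx, Meox1, Msc and Penk. They are called Scx Meox1 mesenchyme here. A barcode was kept with at least 200 genes and at most 15% mitochondrial UMIs (unique molecular identifiers, each 1 captured transcript). It counted as mesenchyme with a UMI of at least 4 of Col1a1, Col1a2, Col3a1, Pdgfra, Prrx1 and Twist1. It was selected with a UMI of at least 2 of Meox1, Scx, Msc and Penk, fewer than 2 of Tfap2b, Matn4, Ddit4l and Tmem132c, and fewer than 2 of Aldh1a2, Six2, Foxf2 and Pgf. The rule chose cells by these 18 genes, so their levels describe the choice, and with 1 library per genotype no comparison was tested.

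The study asked what loss of Myrf, a membrane-bound transcription factor, does to the developing eye. The control library came from Myrf fl/fl mice, in which both Myrf alleles are floxed, and the mutant library from Rx>cre Myrf fl/fl mice, which carry the same floxed alleles and an Rx-driven Cre transgene. Each library was made from 3 pooled samples at e13.5, so embryos cannot be separated. The Rx transgene acts in the early eye field, from which the retina and its pigment epithelium arise.

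Tendon cells are fibroblasts that link muscle to bone or, at the eye, to the sclera. Scx encodes scleraxis, a bHLH factor found in tendon progenitors from their first appearance; Mkx and Egr1 act later, and Tnmd marks maturing tendon. Meox1 is a homeobox factor known from somites and their derivatives, Msc (musculin) a bHLH repressor of head muscle precursors, Penk the precursor of enkephalin peptides, and Tnc encodes tenascin-C, a glycoprotein of tendon, perichondrium and migrating mesenchyme.

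The control library held 5519 kept barcodes and the mutant 6374, from totals of 63483835 and 75228861 UMIs. Both libraries shared 72 barcodes, of which 1 control and 2 mutant cells were selected. Without them the selected share of mesenchyme was 11.3% and 12.3%, and 170 of the 171 genes counted as higher remained. The pools differed in embryo sex: of the selected cells that Xist or Y-linked transcripts could assign, 83.4% were female in the control and 48.8% in the mutant, against 64.6% and 38.7% of the other mesenchyme. Scrublet marked 3 control and 4 mutant selected cells as doublets.

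The rule picked 173 of 1541 mesenchyme cells in the control library and 246 of 1994 in the mutant. That was 11.2% (95% exact interval 9.69 to 12.9) and 12.3% (10.9 to 13.9), a difference of 1.11 percentage points (Newcombe interval -1.05 to 3.23). Of all kept cells the shares were 3.14% and 3.86%, a difference of 0.725 points (0.0599 to 1.38). All intervals cover counting error only, not the spread between embryos or libraries. Intervals of summed UMIs, given further below, leave out the spread between cells as well. Female control cells were selected at 14.7% (12.4 to 17.3) of mesenchyme and female mutant cells at 16.4% (13.6 to 19.6). Among male cells the shares were 5.88% (3.84 to 8.56) and 11.5% (9.53 to 13.8), so the shares lay further apart in male cells, of which the control gave 25; this was not tested. The selected cells were about as deep as the rest, with medians of 13071 and 11346 UMIs per cell against 13837 and 12924 in the other mesenchyme.

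Scx and Meox1 were the commonest of the 4 markers. Scx was detected in 91.9% of control and 89.8% of mutant selected cells, and Meox1 in 89.6% and 87.4%. Penk was found in 66.5% and 72.4%, and Msc in 49.7% (42 to 57.4) and 66.3% (60 to 72.1), the only 1 of the 4 whose intervals did not overlap between the libraries. All 4 were detected together in 55 control cells (31.8%) and 99 mutant cells (40.2%), and the pair Meox1 and Scx alone in 33 and 23. The remaining combinations are in the plot of markers detected together.

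**Figure D1:**
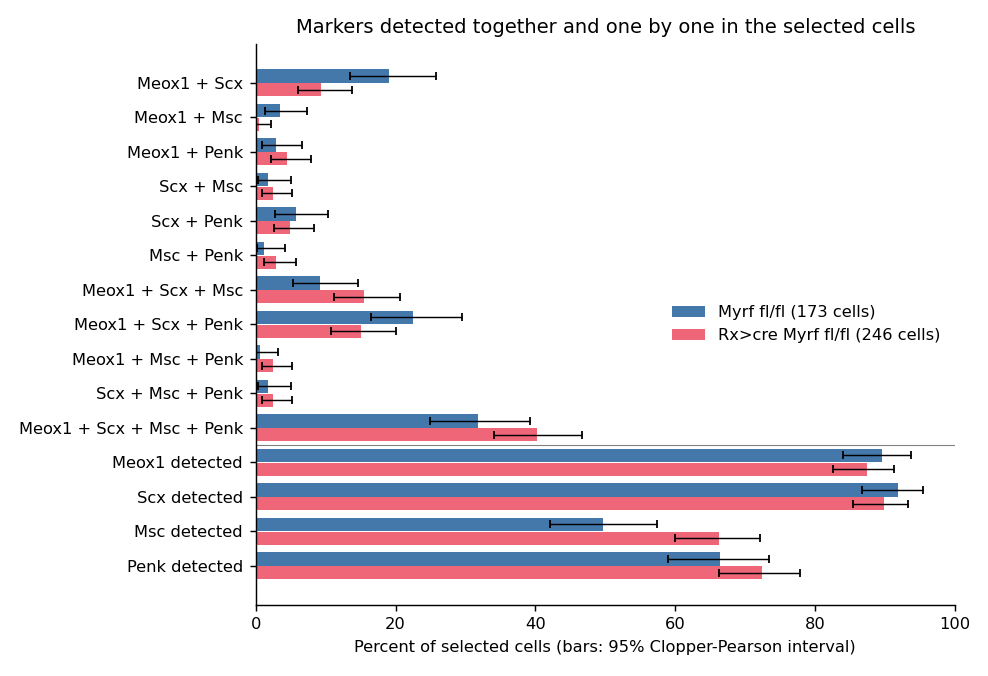
Percent of selected cells with each combination of Meox1, Scx, Msc and Penk, in the Myrf fl/fl (173 cells) and Rx>cre Myrf fl/fl (246 cells) libraries, with 95% Clopper-Pearson intervals. Rows below the line give the cells with each gene, whichever other markers they carried. The combination of all 4 genes was the commonest in both libraries, at 31.8% and 40.2%.

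Scx lies at chr15:76457452-76459458 on the plus strand of GRCm38, Meox1 at chr11:101877510-101894374, Msc at chr1:14753346-14755992 and Penk at chr4:4133531-4138819, the last 3 on the minus strand. In CPM, the UMIs of a gene per 1000000 UMIs summed over a set of cells, Scx stood at 571 in control and 494 in mutant selected cells, and at 61.1 and 67.4 in the other mesenchyme. Meox1 stood at 533 and 483 against 39.0 and 43.4. Single cells ranged from 0 to 35 and 33 UMIs of Scx, with medians of 6 and 4, and from 0 to 30 and 34 of Meox1, with medians of 5 and 4. Retinal cells, which should lack Scx, had a UMI of it in 1.45% and 0.961% of cells at medians of 13908 and 12743 UMIs, while the other mesenchyme had one in 29.2% and 29.4%. Scx transcripts thus reached well outside the selected cells, above the share in retinal cells.

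The edge of the rule ran through a gradient. Control cells with 2, 3 and 4 markers numbered 59, 59 and 55, and mutant cells 60, 87 and 99. Just outside it were 76 control and 100 mutant cells with 1 marker and neither excluded set. A further 216 and 312 cells carried 2 or more markers and were left out by their Tfap2b or Aldh1a2 genes. Barcodes that failed the quality filter but met the marker rule numbered 1 and 0.

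Tnc, which the rule did not use, was among the 12 highest genes of the selected cells, and its level followed the number of markers. It was named as a marker of these cells with earlier results of these data known, so its level describes them and tests nothing. It stood at 112 CPM in control and 89.2 in mutant selected cells, against 7.69 and 8.74 in the other mesenchyme. The log2 ratio was 3.86 (3.58 to 4.16) and 3.35 (3.09 to 3.62), here and below with 1 UMI added to each sum and an exact conditional binomial interval. In cells with 2, 3 and 4 markers Tnc was at 43.3, 80.1 and 216 CPM in the control and 18.5, 78.9 and 145 in the mutant. Cells with 1 marker were at 15.8 and 18.7, mesenchyme with none at 2.58 and 2.08, and the cells with 2 or more markers left out by the excluded sets at 28.5 and 31.6. From 2 to 4 markers the Tnc level was higher at each step in both libraries.

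A UMI of Tnc was found in 50.9% (43.2 to 58.5) of control and 43.1% (36.8 to 49.5) of mutant selected cells, with at most 12 in a cell, and in 7.24% and 7.27% of the other mesenchyme. Retinal cells, as a measure of free RNA, had one in 0.347% and 0.101%. With every cell thinned to 3000 UMIs the shares of selected cells were 23.1% and 19.1%, against 1.93% and 2.02% of the other mesenchyme. Tnc lies at chr4:63959785-64047015 on the minus strand. Its promoter is printed because Tnc was the marker that the rule left free, and scleraxis and musculin belong to the bHLH family, which binds E-boxes (CANNTG). RefSeq (GRCm38.p6) places the 250 bases before and 50 after its start at chr4:64046966-64047265, minus strand, with E-boxes in capitals:

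Tnc: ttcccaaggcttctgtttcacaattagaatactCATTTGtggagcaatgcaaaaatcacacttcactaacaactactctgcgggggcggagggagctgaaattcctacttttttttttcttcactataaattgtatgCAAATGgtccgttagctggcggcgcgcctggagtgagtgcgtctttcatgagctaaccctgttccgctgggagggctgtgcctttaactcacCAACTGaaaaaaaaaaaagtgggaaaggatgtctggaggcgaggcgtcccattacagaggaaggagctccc

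The window held 3 CANNTG matches, 1 TATAAA and 1 GGGCGG, counted on both strands with overlapping matches kept. Of 32851 mouse promoters of this length 72.3% held a CANNTG, with a median of 1 and a 90th percentile of 3. A match describes letters, not a bound site. The promoter of Grem1, whose ratio was nearly as high, was chosen after the matches were seen, as one without an E-box, at chr2:113758599-113758898, minus strand:

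Grem1: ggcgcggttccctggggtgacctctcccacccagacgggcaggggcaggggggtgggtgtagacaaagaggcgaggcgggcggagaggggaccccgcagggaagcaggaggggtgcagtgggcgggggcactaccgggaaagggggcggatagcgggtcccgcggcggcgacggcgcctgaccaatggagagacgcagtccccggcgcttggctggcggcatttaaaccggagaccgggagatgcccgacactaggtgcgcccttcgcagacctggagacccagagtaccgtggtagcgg

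It held 0 CANNTG and 3 GGGCGG, a sequence present in 35.7% of the promoters, while TATAAA was present in 13.6%. Sequences were matched for 11 of 16 genes looked up, the 4 markers and the 12 highest genes, and 8 of the 11 held a CANNTG. The counts were 3 for Tnc, Lrrn1 and Tm4sf1, 5 for Dleu7, 4 for Cga, 2 for Ier3, 1 for Kif26a and Fabp3, and 0 for Grem1, Rgcc and Gal.

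Of 9929 genes with at least 100 UMIs in the mesenchyme of each library, 171 (1.72%) were more than 2-fold higher in the selected cells of both libraries and 115 (1.16%) more than 2-fold lower. By means over cells of log2 values, with 1 added to the UMIs per 10000, 7 and 1 differed by more than 1. That cut is not a 2-fold change, because the added 1 shrinks differences of genes with few UMIs per cell. The median gene had a log2 ratio of 0.07 and 0.06. Besides Tnc, the 12 highest genes were Ier3, Grem1, Dleu7, Rgcc, Fam159b, Gal, Kif26a, Fabp3, Lrrn1, Tm4sf1 and Cga. Ier3, an immediate early survival gene, was at 209 and 192 CPM against 16.4 and 16.8 (log2 3.67 and 3.51). Grem1, a secreted BMP antagonist, was at 144 and 203 against 14.1 and 22.7 (3.35 and 3.16), and was higher with each added marker, at 79.2, 105 and 250.5 CPM in control and 62.9, 197 and 301 in mutant cells with 2, 3 and 4. Rgcc, a regulator of the cell cycle, was at 224 and 147 against 21.0 and 17.2. The heart-type fatty acid binding protein gene Fabp3 was at 74.4 and 115 against 11.6 and 13.1.

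Some of the highest genes came from few cells. Gal, which encodes the neuropeptide galanin, was detected in 13 control and 26 mutant selected cells, and 1 cell gave 31.7% and 44.3% of its UMIs. Cga, the shared alpha subunit of the glycoprotein hormones, was detected in 22 and 56 cells, at 43.2 and 101 CPM against 7.98 and 11.4 in the other mesenchyme. Cga did not follow marker number: it was at 22.3, 70.2 and 36.9 CPM in control cells with 2, 3 and 4 markers and at 145, 124 and 50.9 in mutant ones. The other genes of this group were spread over more cells, Kif26a, a kinesin-like protein, over 55 and 59, and Lrrn1, a leucine-rich repeat membrane protein, over 55 and 90.

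**Figure D2:**
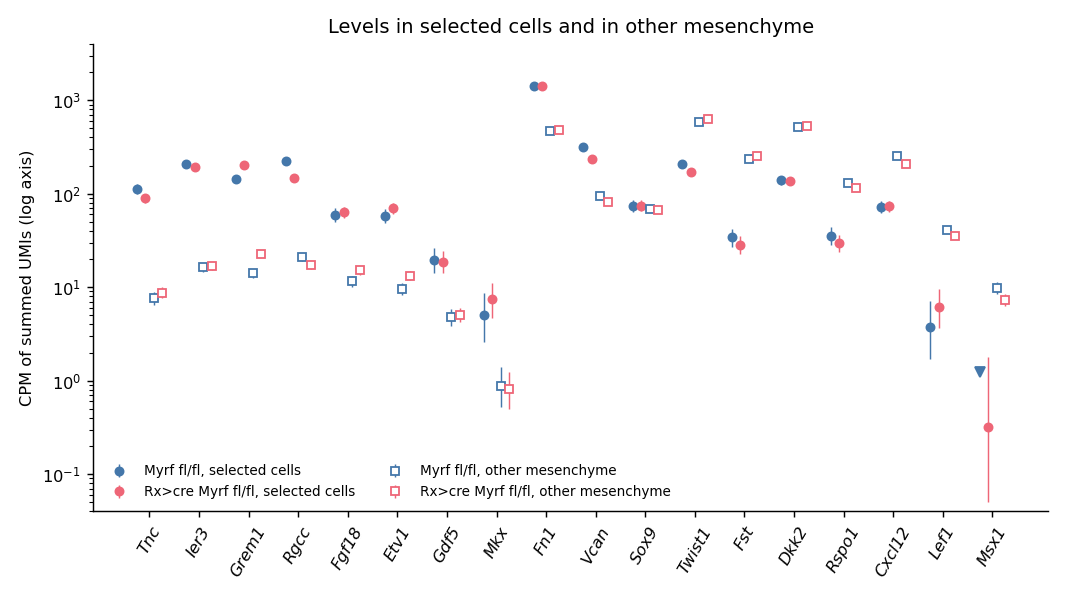
CPM on a log axis of 18 genes in selected cells (filled) and other mesenchyme (open) of the 2 libraries, with 95% exact Poisson intervals, and a triangle at the limit that 0 UMIs allow. Tnc, Ier3, Grem1 and Fgf18 lie higher in the selected cells of both libraries, Sox9 lies close in all, and Twist1, Fst, Dkk2 and Lef1 lie lower.

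Among the tendon transcription factors, the late ones were sparse. Eya2, a transcriptional cofactor, was at 94.8 and 96.3 against 64.5 and 60.8. Egr1 was at 8.31 and 6.47 against 21.8 and 13. Mkx, below the 100 UMI minimum, gave 12 UMIs in 9 control cells and 23 in 20 mutant cells, a share of 5.2% (2.41 to 9.65) and 8.13% (5.04 to 12.3), against 0.877% and 1.09% of the other mesenchyme and 0.174% and 0.304% of retinal cells. In cells with 2 markers Mkx gave 0 UMIs in both libraries, and with 4 markers it reached 12.7 and 10.7 CPM. Tnmd, the marker of mature tendon, had 0 UMIs in the selected cells and 1 UMI in the other mesenchyme of each library. Besides Scx, which the rule used, Tnc was thus frequent, Mkx sparse and Tnmd not detected in the selected cells.

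In the matrix of tendon and fibrous tissue 7 of 41 genes were more than 2-fold higher in both libraries and 1 lower, with medians of 0.30 and 0.38. Besides Tnc these were Fn1 (fibronectin), Vcan (the proteoglycan versican), Ptgis (prostacyclin synthase), Tgfbi and Angptl7, both secreted, and Adamts5, a protease that cuts versican. Fn1 was the most abundant of them, at 1422 and 1405 CPM against 473 and 482. It was at 924, 1354 and 2004 CPM in control cells with 2, 3 and 4 markers and at 627, 1593 and 1759 in mutant ones. Vcan was at 320 and 237 against 94.2 and 81.0. The fibril-associated collagen Col14a1 was at 3.74 and 6.47 against 31.3 and 26.3 (log2 -2.92 and -1.95). The general matrix gene Sparc and the collagen chaperone Serpinh1 lay closer, at log2 0.73 and 0.74 and at 0.18 and 0.23. Lum, the keratan sulfate proteoglycan lumican, was at -0.48 and -0.20.

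Cells linking cartilage and tendon can carry Sox9 with Scx. Sox9 was at 74.8 and 74.7 CPM in the selected cells and 69.5 and 66.5 in the other mesenchyme, with log2 intervals of -0.13 to 0.33 and -0.04 to 0.37. Within the selected cells, those with Scx gave 175 and 224 Sox9 UMIs and those without gave 5 and 7. The log2 ratios of CPM were 1.39 (0.39 to 3.28) and 1.93 (1.05 to 3.44). The cells without Scx numbered only 14 and 25, and this was not tested. Of 7 cartilage genes 1 was past 2-fold higher in both libraries, Col9a2, at 65.7 and 62.1 CPM against 21.8 and 23.4. Col2a1, the main cartilage collagen, was at 193 and 154 against 117 and 110.

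TGF-beta and FGF signals act on tendon progenitors in limb and head. Of 22 TGF-beta pathway genes 4 were more than 2-fold higher in both libraries and 1 lower. The higher ones were Inhba, a subunit of activin, at 20.8 and 35.9 CPM against 5.86 and 8.58, the latent TGF-beta binding protein gene Ltbp4, and the targets Skil and Cyr61. The ligand gene Tgfb2 was at 219 and 248 CPM against 146 and 160 (log2 0.58 and 0.63). Fst, which encodes the activin antagonist follistatin, was at 34.1 and 28.4 against 235 and 251, and was lower with each added marker, at 58.1, 34.5 and 8.90 CPM in control and 67.8, 19.7 and 9.86 in mutant cells with 2, 3 and 4. Inhba and Fst thus lay on opposite sides in both libraries.

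Of 12 FGF genes 4 were more than 2-fold higher in both libraries and 1 lower. The ligand Fgf18 was at 59.8 and 63.0 CPM against 11.5 and 15.1 (log2 2.38 and 2.06). The target genes Etv1 and Spry2 were at 57.8 and 70.5 against 9.66 and 13.3, and at 37.0 and 43.3 against 12.3 and 12.8, and the feedback inhibitor Il17rd at log2 1.16 and 1.49. Of the receptors, Fgfr2 was lower, at 36.6 and 25.2 CPM against 95.7 and 89.1, and Fgfr1 was at 66.1 and 49.5 against 59.5 and 53.4. Ligand, targets and inhibitors lay on 1 side and the receptor Fgfr2 on the other.

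In the BMP pathway 2 of 19 genes were higher and 2 lower past 2-fold in both libraries. Gdf5, a ligand of joint and tendon development, was at 19.5 and 18.8 CPM against 4.78 and 5.06, and Grem1 is given above. Msx1, a target homeobox gene, had 0 UMIs in control and 1 in mutant selected cells, at least 7.86-fold lower in the control by a limit of 3 UMIs. Gdf10 had 3 and 4 UMIs against 170 and 181 in the other mesenchyme. The target Id3 was at 634 and 539 CPM against 1139.7 and 1000.1.

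Wnt pathway genes were the list with the most members lower: 9 of 24 were more than 2-fold lower in both libraries and 2 higher, with medians of -0.64 and -0.83. Lef1, a transcriptional effector and target of the pathway, was at 3.74 and 6.14 CPM against 41.4 and 35.0. The target Axin2 was at 8.73 and 6.14 against 22.3 and 19.8. The antagonist Dkk2 was at 139 and 138 against 520 and 531, and the agonist Rspo1 at 35.3 and 29.7 against 130 and 114. Wnt4, Wif1, Nkd2, Rspo3 and Ror2 were the others. The ligand gene Wnt11, at 30.3 and 25.9 CPM against 8.97 and 8.54, and the receptor gene Fzd4, at 18.3 and 18.1 against 7.05 and 6.92, were higher. Agonists, antagonists and targets were all among the lower genes.

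Retinoic acid and hedgehog genes lay closer to the other mesenchyme. Of 15 retinoic acid genes 0 were higher and 1 was lower past 2-fold in both libraries, the binding protein gene Crabp1, at 104 and 85.3 CPM against 225 and 201. Of 9 hedgehog genes 1 was lower past 2-fold in both libraries, the target Gli1, at 9.14 and 4.53 against 22.2 and 19.7.

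**Figure D3:**
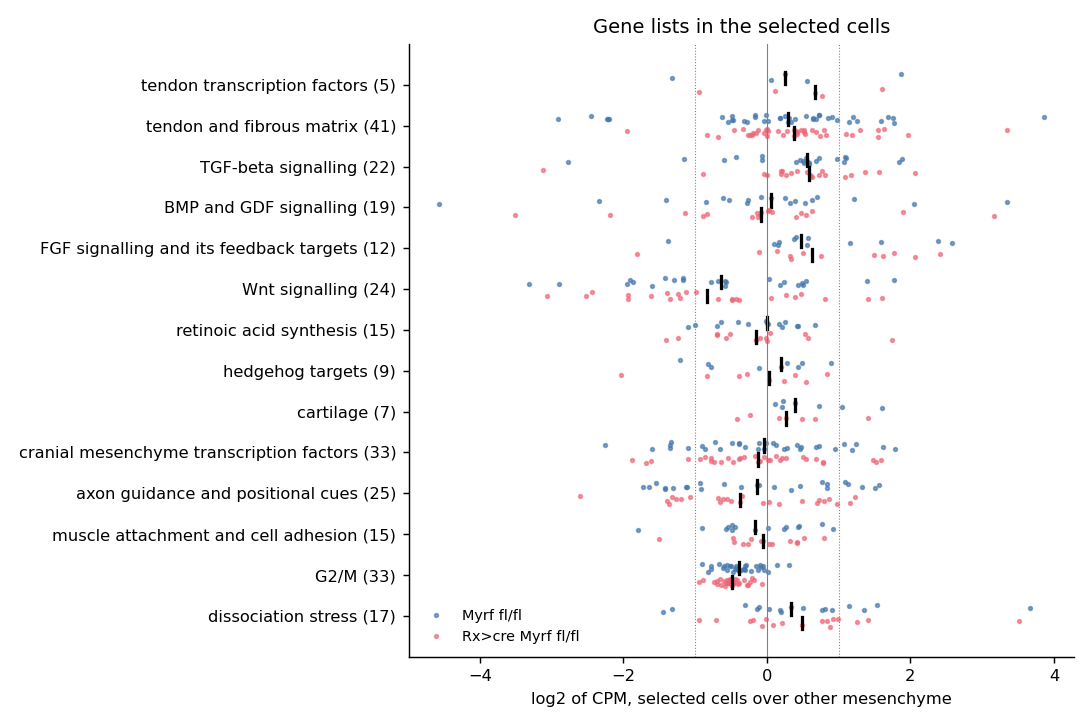
Log2 ratio of CPM, selected cells over other mesenchyme, of the measured genes of 14 lists, with the number of genes in parentheses, the 2 libraries as blue (Myrf fl/fl) and red (Rx>cre Myrf fl/fl) points, black bars at the medians and dotted lines at 2-fold. The Wnt and G2/M medians lie below 0 in both libraries and the TGF-beta and FGF medians above it.

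Cranial mesenchyme transcription factors were mixed. Of 33, 3 were higher past 2-fold in both libraries (Tbx15, Tbx22 and Ebf3) and 3 lower (Twist2, Foxc2 and Snai1). Ebf3, an early B cell factor family member, was at 41.1 and 41.7 CPM against 13.4 and 14.0. Twist2 was at 40.3 and 34.3 against 104 and 105. Foxc1, which the periocular mesenchyme needs to form the anterior eye, was at 65.7 and 69.8 against 124 and 110. Meox2, the paralog of Meox1 and below the minimum, had 45 and 103 UMIs, at log2 3.47 (2.81 to 4.17) and 3.61 (3.16 to 4.08). Meox1 itself was at 3.77 and 3.48, but as a marker of the rule its ratio describes the choice of cells. Of the rule genes Twist1, part of the mesenchyme rule itself, was at 210 and 171 CPM against 591 and 631 and at 159 and 117 in cells with all 4 markers, against 252 and 245 in those with 2.

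Among 25 guidance genes 2 were higher and 6 lower past 2-fold in both libraries. At any size 10 were higher and 14 lower in both. The ephrin receptor gene Epha3 was at 111 and 87.9 CPM against 44.4 and 39.6, and the ephrin ligand gene Efnb2 at 28.7 and 32.0 against 13.7 and 13.7. Nrp1, a semaphorin and VEGF receptor, was at 12.1 and 14.5 against 41.2 and 38.1, and the ligand Sema3c at 11.2 and 16.5 against 36.1 and 35.1. Of 15 genes of muscle attachment and adhesion 1 was past 2-fold in both libraries, the chemokine Cxcl12, at 72.3 and 73.1 against 252 and 208.

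The lowest genes were nearly absent. Htr1f, a serotonin receptor, and Apod, a lipocalin, had 0 UMIs in the selected cells of both libraries, at least 7.03- and 7.18-fold lower for Htr1f and at least 5.85- and 8.34-fold lower for Apod. S100a6, a calcium-binding protein, was at 6.65 and 8.41 CPM against 113 and 120 (log2 -4.0 and -3.78). The desmocollin Dsc3 had 0 UMIs in the control, at least 10.4-fold lower, and 2 in the mutant. The monooxygenase Fmo1 had 3 and 1 UMIs against 584 and 503. The others, Cpxm2, Abcg5, Scube2, S100a4, Wnt4 and the anchoring collagen Col7a1, had 1 to 4 UMIs each in a library.

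Against the 2 excluded kinds of mesenchyme the picture was uneven, as those were chosen by their own genes. The Tfap2b set here had 2 or more Tfap2b-list genes and fewer than 2 Aldh1a2-list genes (681 control and 902 mutant cells). The Aldh1a2 set was the reverse (333 and 390 cells). Tnc was at 7.61 and 7.65 CPM in the Tfap2b set and at 7.79 and 13.1 in the Aldh1a2 set. Etv1 was at 6.63 and 9.03 in the Tfap2b set and 14.8 and 20.1 in the Aldh1a2 set. Twist1 was at 883 and 938 in the Tfap2b set but at 189 and 167 in the Aldh1a2 set, close to the selected cells, and Epha3 was at 125 and 110 in the Aldh1a2 set, above the selected 111 and 87.9. The low Fst was likewise shared, at 24.4 and 11.1 in the Aldh1a2 set and 388 and 413 in the Tfap2b set.

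A smaller share of the selected cells carried cell cycle transcripts. A cell counted as cycling with 2 or more of Mki67, Top2a, Cenpf, Ccnb1, Cdk1 and Birc5, and 33.5% (26.5 to 41.1) of control and 25.6% (20.3 to 31.5) of mutant selected cells did, against 43.2% (40.6 to 45.9) and 36.8% (34.6 to 39.2) of the other mesenchyme. The control intervals overlapped and the mutant ones did not. Of 33 G2/M genes 30 were lower in both libraries, though 0 past 2-fold, with medians of -0.40 and -0.49. Of all 9929 genes 25.9% were lower in both libraries and 43.9% higher. Birc5 was at 159 and 156 CPM against 254 and 237. Of 28 S phase genes 13 were lower in both. Of 17 stress genes that dissociation can induce, 10 were higher in both libraries and 4 lower. Past 2-fold 3 were higher in both (Ier3, Klf6 and Dusp1) and 0 lower, Jun was at log2 1.14 and 0.88, and Egr1, given above, lay lower. Their part in the differences was not tested.

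Transcripts of other cell types were summed by list. The 23 myogenic genes summed to 102 CPM in control and 87.3 in mutant selected cells, against 36.3 and 36.1 in the other mesenchyme, and the top cell of each library held 44.1% and 10.4% of those UMIs. The muscle factors Myf5 and Myod1 and the muscle protein Ttn gave 21, 14 and 26 UMIs in the control, every one in the 14 selected cells without Scx. In the mutant, Myf5 gave 11 UMIs in the 221 cells with Scx and 4 in the 25 without. Much of the myogenic sum was Tnnt1, which gave 42 UMIs in control cells with Scx and 79 in those without, of 245. In the mutant Tnnt1 gave 145 and 22 of 270, while Myod1 gave 4 and Myog 1. The 8 pericyte genes summed to 46.1 and 44.3 CPM against 51.0 and 42.2, with 4.5% and 3.65% of the UMIs in the top cell. Of their 111 and 137 UMIs, Notch3 gave 79 and 66 in cells with Scx, and Rgs5 13 and 44. Kcnj8 gave 0 and 1 UMIs, Abcc9 3 and 0, and Higd1b and Vtn 0 in both libraries. The 9 endothelial genes summed to 16.2 and 23.0 CPM against 65.3 and 40.9.

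For some lists 1 cell held most of the UMIs of a library. Of the 670 macrophage UMIs in mutant selected cells 98.4% were in 1 cell, the control having 9. Of the 14154 red blood cell UMIs in control selected cells, 5883 CPM, 93.2% were in 1 cell, and of 203 melanoblast UMIs 38.4% were. Retina and RPE genes summed to 197 and 270 CPM against 213 and 207, with 28.5% and 24.9% in 1 cell. Surface epithelial genes were at 103 and 108 against 58.5 and 61.5, with 6.05% and 4.18% in the top cell. Of their 248 and 335 UMIs, Krt18 gave 204 and 231 in cells with Scx, and Epcam 18 and 67. Krt5 and Krt14 gave 0 UMIs in the control and 1 each in the mutant, and Cdh1 gave 1 and 2. Schwann and glial genes were at 5.40 and 4.85 CPM against 20.3 and 14.5.

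To see whether the selected cells lie together by genes outside the rule, all mesenchyme was clustered without the 18 rule genes. Of 12 clusters, cluster 6 held 68 of 173 control (39.3%) and 117 of 246 mutant (47.6%) selected cells. Selected cells made up 69.4% and 69.6% of it, and it held 2.19% and 2.92% of the other mesenchyme, of which 29 of 30 control and 47 of 51 mutant cells carried 2 or more of the markers and were left out by their other genes. The leading genes of cluster 6 were Fam159b, Tnc, Meox2, Msc, Ier3, Meox1, Rgcc, Stmn4, Tagln and Grem1. The rest of the selected cells were spread out, with 28 and 26 in cluster 2, 27 and 17 in cluster 8 and 12 and 28 in cluster 10, where they were 40.0% and 38.9% of the cells. Cluster 10 was led by Epha3, Kctd12 and Cga, and cluster 8 by Rspo2, Tbx22 and Cga. Clusters 4 and 5 were led by cell cycle genes, among them Cdc25c and Ube2c in cluster 4 and Mybl2 and Ccne2 in cluster 5. They held 11 and 18 selected cells (cluster 4) and 15 and 11 (cluster 5), which comparisons of cluster 6 alone leave out. Cluster 11, with the eye field factor Six6 among its leading genes, held 4 and 6, and all its cells had medians of 25792 and 25470 UMIs.

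**Figure D4:**
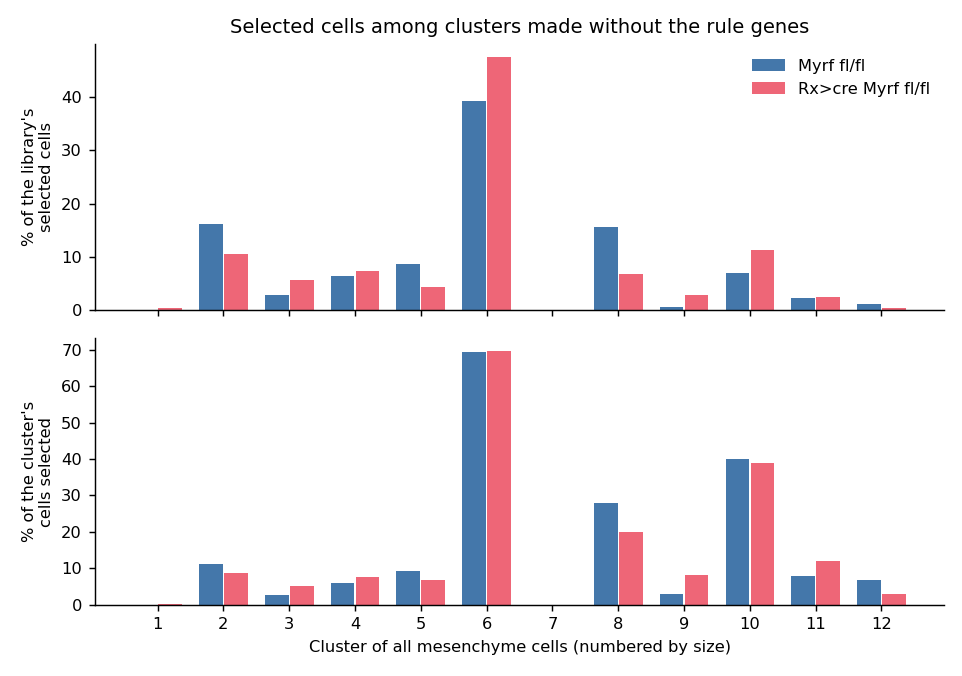
Share of each library's selected cells in each of 12 clusters of mesenchyme made without the rule genes (top) and share of each cluster that was selected (bottom), in percent. Cluster 6 holds 39.3% of control and 47.6% of mutant selected cells and is the only cluster of which over 50% was selected.

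The clusters were made from variable genes of these same cells, so levels inside and outside cluster 6 describe it and test nothing. Inside, Tnc was at 202 CPM in the control and 164 in the mutant, and outside at 60.8 and 32.9. Mkx gave 12 of its 12 control and 21 of its 23 mutant UMIs inside. Fabp3 was at 117 and 234 against 50.3 and 25.5. Cga was the reverse, at 26.3 and 44.4 inside and 52.9 and 143 outside, and Myf5 gave 0 UMIs inside and 21 and 15 outside. Sox9 was at 76.5 and 64.0 inside against 73.8 and 82.7. The ligand gene Gdf5 was at 16 and 14.3 inside against 21.6 and 22.1.

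In the mutant the targeted gene could not be followed in these cells. Myrf gave 8 UMIs in control and 4 in mutant selected cells, at 3.32 and 1.29 CPM (log2 ratio mutant over control -1.21, interval -3.54 to 0.54), and the sources used here do not say whether the counted 3' end lies inside the floxed part. Tmem98, which encodes a MYRF-binding membrane protein, was at 39.5 and 40.4 CPM.

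Among the markers, Scx, Meox1 and Tnc were slightly lower in the mutant library and Penk and Msc higher. The log2 ratio of mutant over control was -0.21 (-0.31 to -0.10) for Scx, -0.14 (-0.25 to -0.03) for Meox1 and -0.33 (-0.58 to -0.08) for Tnc. Penk was at 0.49 (0.34 to 0.64) and Msc at 0.59 (0.44 to 0.75), from 213 to 322 CPM. Msc differed further in the other mesenchyme, at 1.66 (1.42 to 1.92), from 8.38 to 26.6 CPM, and in male selected cells its ratio was -0.18. Fn1 was at -0.02 (-0.08 to 0.05), Etv1 at 0.28 (-0.03 to 0.60), Fgf18 at 0.07 (-0.24 to 0.40) and Grem1 at 0.50 (0.31 to 0.69).

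Of 5882 genes with at least 100 UMIs in the selected cells, 58 (0.986%) were more than 1.5-fold higher in the mutant library and 113 (1.92%) lower, with a median log2 ratio of -0.04. These counts followed the minimum, at 182 and 334 with 50 UMIs and 11 and 13 with 300. By means over cells of log values they were 0 and 0, though a cut on such means is not a 1.5-fold change. Of the 58 and 113, 8 and 2 were past 1.5-fold in the other mesenchyme as well. Over 20% of the mutant UMIs were in 1 cell for 13 of the 58, and of the control UMIs for 6 of the 113. Without cells that held transcripts of other cell types, the counts were 39 and 107, of which 29 and 78 were the same genes. In female cells alone 12 of the 58 and 21 of the 113 were counted, and in male cells 2 and 1. Library, genotype and pool of embryos cannot be told apart here.

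The highest ratios of mutant over control came mostly from few cells. C1qa, C1qb, C1qc and Fcer1g, complement and receptor genes of macrophages, gave 103 to 156 UMIs in the mutant and 0 to 3 in the control, with 97.6% to 98.7% in 1 mutant cell. Hmox1, haem oxygenase, had 89.4% of its mutant UMIs in 1 cell, Selenop, a selenium carrier, 65.5%, and Atoh7, a retinal neurogenic factor, 45.0%. Wdfy1 was spread over 98 mutant cells, at 6.65 CPM in the control and 43.3 in the mutant (log2 2.63, 1.95 to 3.55), and was as far apart in the other mesenchyme (2.44). Stmn4, a stathmin that binds tubulin, was at 14.5 and 42 CPM (1.5, 0.98 to 2.11), with 0.82 in the other mesenchyme. AC149090.1 was at 1.41, with 0.69 in the other mesenchyme.

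Among the genes lowest in the mutant, the melanosome gene Pmel went from 114 to 20 UMIs, with 45.6% of the control UMIs in 1 cell, and the eye field factor Six6 from 79 to 34, with 27.8% in 1. The cadherin gene Cdh6 was at 66.9 CPM in the control and 26.5 in the mutant (log2 -1.33, -1.74 to -0.94), against -0.35 in the other mesenchyme. Plk4, a kinase of centriole duplication, and Bora, a mitotic kinase cofactor, were at -1.31 (-1.89 to -0.78) and -1.06 (-1.67 to -0.49), and Clspn and Fignl1, of replication and repair, at -1.05 and -1.02. Pcyt2, of phospholipid synthesis, and Calcrl, a peptide receptor, were at -1.09 and -1.04. Of the cell cycle lists, 1 of 22 G2/M and 4 of 21 S phase genes were more than 1.5-fold lower in the mutant, beside 1.92% of all genes. Cycling cells made up 25.6% of mutant and 33.5% of control selected cells, and the part of this in the cell cycle genes was not tested.

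**Figure D5:**
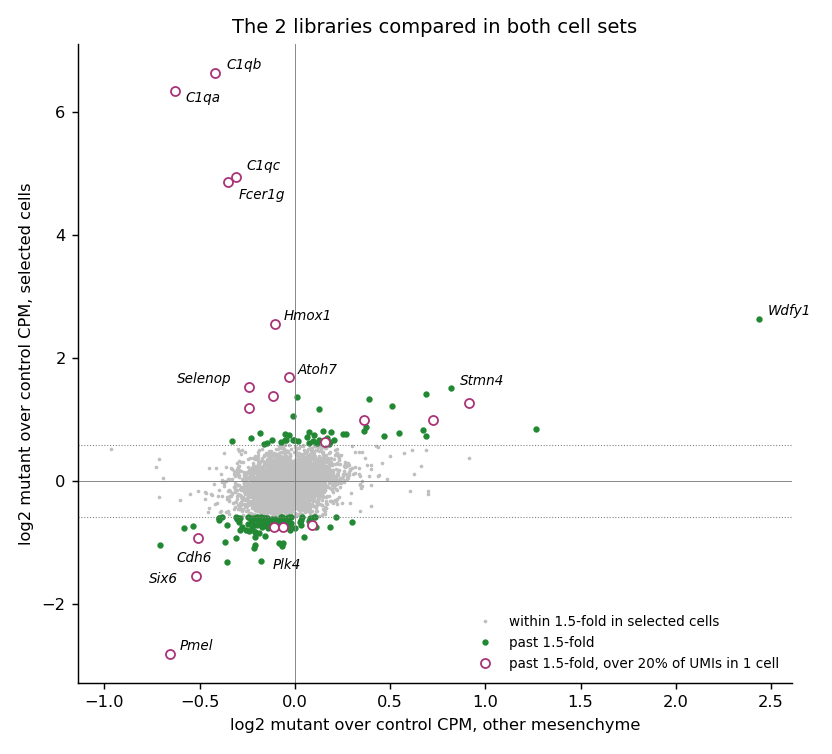
Log2 ratio of mutant over control CPM of 5882 genes, in the selected cells (vertical) against the other mesenchyme (horizontal). Green points are past 1.5-fold in the selected cells (dotted lines), and rings those with over 20% of the UMIs in 1 cell; Wdfy1 lies apart on both axes, and C1qa, C1qb, C1qc and Fcer1g on the vertical axis only.

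Genes named among the highest in the selected cells also differed between the libraries. Cga was at 43.2 CPM in control and 101 in mutant selected cells (log2 1.21, 0.90 to 1.56), with 0.51 in the other mesenchyme. Fabp3 was at 0.63 (0.37 to 0.90) and Rgcc at -0.60 (-0.79 to -0.42). Fabp3 and Rgcc changed sign in male cells, to -0.85 and 0.02.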

How the data were processed

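Single cells of e13.5 eye cups were counted in 2 libraries, 1 per genotype, each of 3 pooled samples. The deposited values are UMI counts per gene and barcode, which the authors made with Cell Ranger 7.1.0 on mm10 (the same assembly as GRCm38) and did not normalize; Seurat 4.1.1 is named in the submitters' processing notes. The authors' 10x 3' libraries came from eye cups without cornea, lens and optic nerve, dissociated with papain. The study's own cap of 2000 UMIs on each cell was run as an alternative only.

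Barcodes with at least 200 genes and at most 15% mitochondrial UMIs were kept, cells were chosen by the marker rule, and UMIs were summed per library and set and given as CPM with Python 3.11.15, numpy 2.4.6, pandas 2.3.3 and scipy 1.17.1. Ratios had 1 UMI added to each sum. Genes needed 100 UMIs, and a gene counted as higher or lower past 2-fold in both libraries against other mesenchyme, or past 1.5-fold between libraries. Nothing was tested, as each genotype has 1 library; intervals (95%; exact Poisson, Clopper-Pearson, exact conditional binomial, Newcombe) cover counting error only, and a count of 0 was bounded by 3 UMIs. The comparison of sums was checked on simulated counts. Doublets were marked, not removed, with Scrublet at an expected 5% in scanpy 1.11.5. Mesenchyme was clustered on 2000 variable genes without the 18 rule genes, library means removed, with 30 components, 20 neighbours and Leiden at resolution 0.8. Female cells had a Xist UMI and no Y-linked UMI, male cells the reverse. Retinal cells had 3 or more of 5 retinal transcription factor genes and fewer than 2 genes of the mesenchyme rule.

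The members, gene lists and thresholds were chosen with earlier results of these data known. Named were the rule genes and Tnc, the 12 highest and 12 lowest genes against other mesenchyme, the 10 highest and 10 lowest ratios between libraries, and up to 6 most abundant members per list; other list members named were chosen after their values were seen. Mitochondrial, ribosomal protein, haemoglobin, Xist, Tsix and Y-linked genes were left out of the naming. Some genes that this rule picks are not reported here. Alternatives were other limits on UMIs and mitochondrial share, thinning, stricter marker rules, removal of myogenic, cycling, marked or shared-barcode cells, 1 sex, other comparison sets, other minimum counts and means over cells.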

Additional observations from a re-analysis of the deposited data

Results flagged for a closer look

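Genes named above with at least 100 UMIs in the selected cells were looked through. Some had ratios of mutant over control of opposite sign in the selected cells and the other mesenchyme, with both intervals away from 0. Genes not named above were not looked through for this. The ratios were those of Col3a1 (0.28 in selected cells, -0.29 in other mesenchyme), Twist1 (-0.30 and 0.095), Meox1 (-0.14 and 0.15), Scx (-0.21 and 0.14), Gal (0.51 and -0.97), C1qa (6.34 and -0.63) and Selenop (1.53 and -0.24), all on the log2 scale. Col3a1, Twist1, Meox1 and Scx are genes of the selection rule. The control selected cells had 0 UMIs of C1qa, so its ratio rests on the UMI added. The intervals leave out the spread between cells, and the differences themselves were not tested.

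Ratios of selected cells over other mesenchyme were compared for genes named above with at least 100 UMIs in the mesenchyme of each library. Some genes had opposite signs in the control and mutant libraries, again with both intervals away from 0. They were C1qb (-3.60 in the control, 3.45 in the mutant), Atoh7 (-1.18 and 0.53), Selenop (-0.99 and 0.78), Pmel (0.54 and -1.62) and Pcyt2 (0.44 and -0.44). In 1 cell lay 97.6% of the mutant UMIs of C1qb, 45.0% of those of Atoh7, 65.5% of those of Selenop and 45.6% of the control UMIs of Pmel, whereas Pcyt2 was spread over 69 control and 52 mutant cells. These differences were not tested either.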

How the results depend on the processing

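No paired analysis was possible because each genotype has 1 library, and no replicate could be left out. The selected cells held 2406102 and 3093406 UMIs, which limits the genes that could be compared between genotypes. An upper limit of 2000 UMIs left 0 selected cells (0% of mesenchyme in both libraries), so gene comparisons under it were not run. Of the main values under the alternatives 640 stayed within their interval or 1.5 times their count and 78 moved. Of values for single genes 5274 stayed, 1323 moved and 8 were counted as changed in sign. A sign change was counted only for genes past 2-fold in both libraries, or past 1.5-fold between libraries, in the main values. Any sign change of another gene was counted as stayed or moved.

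The share of mesenchyme selected (control and mutant) was 7.4% and 9.33% with 3 of 4 markers, 14.7% and 16.4% in female cells, and 5.88% in male control cells, and in the mutant 10.6% at a 5% mitochondrial limit, 10.8% with Meox1 required and 14.2% without cycling cells. The share with a Tnc UMI was 8.67% and 6.91% thinned to 1000 UMIs and 35.9% and 33.2% at 6000.

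Genes higher and lower than other mesenchyme numbered 38 and 14 thinned to 3000 UMIs (21 and 13 of them shared with 171 and 115), 98 and 65 in female cells, 68 and 50 in male cells, 85 and 59 at a minimum of 300 UMIs, 7 and 1 by means over cells of log values, and 271 and 389 (152 and 99 shared) for selected cells of cluster 6 alone, a comparison chosen after seeing the data, as was leaving out shared barcodes or cells with other cell types' transcripts. With 5 UMIs added 69 were lower, and against the Aldh1a2 set 105 were higher. Used as alternatives, here and below, the Tfap2b and Aldh1a2 sets also held cells with 2 or more genes of each list. The Aldh1a2 set then had 447 control and 548 mutant cells, against 333 and 390 above. Genes higher and lower in the mutant numbered 16 and 12 thinned (1 and 0 shared), 104 and 51 in male cells (2 and 1 shared), 182 and 334 at a minimum of 50 UMIs, 11 and 13 at 300, 0 and 0 by means over cells, and 44 were lower in cluster 6. Fewer genes and cells entered the thinned, 1-sex and higher-minimum comparisons, and the other causes were not tested. Means over cells were of log2 values with 1 added to the UMIs per 10000. Their counts and medians, here and below, are thus not on the scale of the others.

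Only genes past the 2-fold or 1.5-fold cut in the main values were looked through for changes of sign. Signs changed for Epha3 (-0.054) and Nkd2 (0.049) in the mutant and Twist2 (0.038) in the control against the Aldh1a2 set, for Fabp3 (-0.85), Msc (-0.18) and Rgcc (0.022) between libraries in male cells, for Hmox1 (-0.03) by means over cells, and for Tbx22 (-0.32) in mutant cells of cluster 6.

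Medians of log2 ratios moved most for G2/M. In the control it was -0.18 under 20000 UMIs, -0.53 thinned, -0.25 with 3 of 4 markers, -0.28 with Meox1 required, -2.20 in male cells, -0.25 without cycling cells, -0.062 by means over cells, -0.58 against the Aldh1a2 set and -2.68 in cluster 6. In the mutant it was -0.39 at 5% mitochondrial UMIs, -0.26 under 20000 UMIs, -0.66 with 3 of 4 markers, -0.66 with Scx and -0.63 with Meox1 required, -0.73 without myogenic cells, -0.43 in female and -0.65 in male cells, -0.12 without cycling cells, -0.57 without mitochondrial, haemoglobin and ribosomal protein genes, -0.43 with 5 UMIs added, -0.09 by means, -0.59 and -0.57 against the Tfap2b and Aldh1a2 sets, -0.57 against cells without markers and -3.35 in cluster 6. The cluster 6 values leave out the selected cells of clusters 4 and 5, which were led by cell cycle genes. The control cartilage median was 0.013 with 3 of 4 markers, -0.017 with Meox1 required, -0.055 in female cells and 0.10 by means. FGF was 0.075 in male control cells and 0.064 and 0.074 by means. TGF-beta was 0.05 by means in the mutant, BMP 0.51 in female mutant cells, stress 1.03 in male control cells and 0.95 in the mutant against cells without markers, tendon matrix 0.57 and 0.53 in the mutant in female cells and cluster 6, and axon guidance -0.71 there.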
